A study of Arabidopsis thaliana with 6 samples.

Results

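The genes described here are 10 Arabidopsis thaliana loci of salicylic acid defence, taken by locus identifier from a count table of 38064 genes. They are the synthesis genes ICS1 (AT1G74710) and EDS5 (AT4G39030), the immune-node genes EDS1 (AT3G48090), PAD4 (AT3G52430) and SAG101 (AT5G14930), the receptor gene NPR1 (AT1G64280), the transcription factor gene WRKY70 (AT3G56400), and the pathogenesis-related genes PR1 (AT2G14610), PR2 (AT3G57260) and PR5 (AT1G75040). All 10 have a row in the table. Polyadenylated RNA was sequenced from the double mutant bdh1-1 bdh2-1 (bdh, 3 libraries) and from Col-0 wild type (WT, 3 libraries), both grown as seedlings for 5 days in darkness at 22 °C. The sample labels name whole etiolated seedlings and the design text names hypocotyls. No treatment or pathogen is named for either genotype, and the number of seedlings pooled per library is not given in the sources used here. BDH proteins are, by the series title, components of the SWI/SNF chromatin remodelling complexes, which move nucleosomes at gene regulatory regions.

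Salicylic acid is the hormone of resistance to pathogens that feed on living tissue. In Arabidopsis most of it comes from chorismate in the plastid: ICS1 makes isochorismate, EDS5 exports it, and PBS3 joins it to glutamate in the cytosol. EDS1, in a pair with PAD4 or SAG101, relays signals of intracellular immune receptors, and NPR1 binds the hormone and, with TGA factors, switches on genes such as PR1, PR2 and PR5, whose proteins are secreted. In unchallenged seedlings the output genes are usually kept low.

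In dark-grown bdh seedlings the output marker PR1 was 5.64-fold higher than in WT, from a very low level, and the exporter gene EDS5 was 1.53-fold higher. WRKY70 was 1.31-fold lower. The other 5 genes with enough counts for a test were not past the threshold, and PR2 and PR5 had no count in any library. Here and below a gene is called past the threshold at an adjusted p under 0.05 by the edgeR quasi-likelihood F test, adjusted after Benjamini and Hochberg across the 20791 genes tested. Of those genes 23.5% were past it, 12.1% higher and 11.3% lower in bdh. Of the 10 defence genes 8 were tested and 3 were past it, 2 higher and 1 lower. PR1 entered the test only through its bdh libraries, where it is high, so this count is a description and no sign that the group differs from other genes. In the 6 fits that each left out 1 library, PR1 stayed past the threshold in 5, EDS5 in 1 and WRKY70 in 0. In a bulk sample, fewer cells that express a gene and less of its RNA per cell cannot be told apart.

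**Figure D1:**
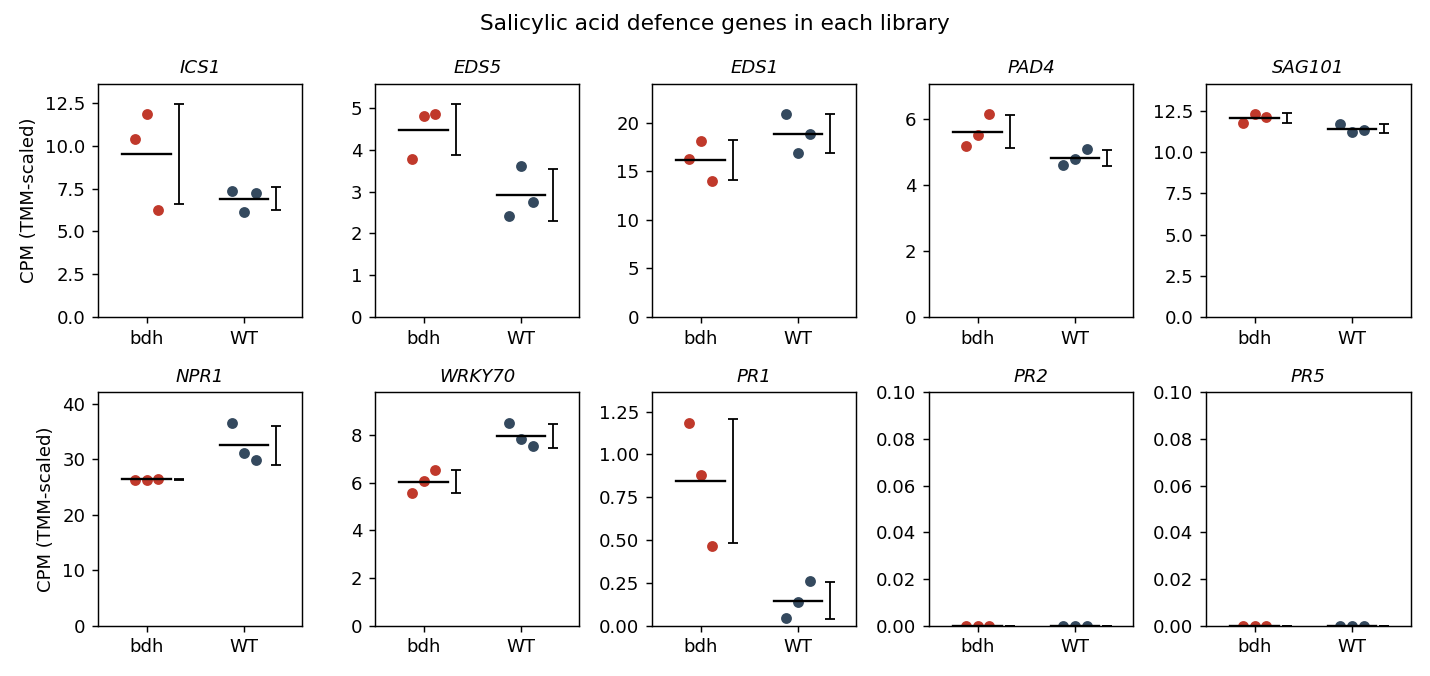
Counts per 1000000 (CPM, scaled by TMM factors) of the 10 genes in each bdh (left) and WT (right) library, with the mean as a line and the SD as a bar (n = 3 each); every axis starts at 0. The groups do not overlap for EDS5, PAD4, SAG101, NPR1, WRKY70 and PR1, they overlap for ICS1 and EDS1, and PR2 and PR5 lie at 0 throughout.

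The upstream sequences of EDS5 and WRKY70, both past the threshold, are shown with matches to 2 well-known kinds of element of defence genes. These are the W-box bound by WRKY factors, searched here as TTGACC or TTGACT, and TGACG, the core bound by TGA factors. Whether either element controls EDS5 or WRKY70 was not tested. Both strands were searched and the matches are in capitals; a match on the other strand appears as its reverse complement. The sequences run 5′ to 3′ on the strand of the gene and come from the RefSeq TAIR10.1 assembly, with distances counted from the annotated gene start. PR1 lies at chr2:6241640-6242541 (minus strand, 1 exon), EDS5 at chr4:18185437-18189224 (plus strand) and WRKY70 at chr3:20908711-20910623 (minus strand). For EDS5 (chr4:18185137-18185436, plus strand) and WRKY70 (chr3:20910624-20910923, minus strand) the 300 bases next to the start are given. No annotated gene lies in these windows.
EDS5: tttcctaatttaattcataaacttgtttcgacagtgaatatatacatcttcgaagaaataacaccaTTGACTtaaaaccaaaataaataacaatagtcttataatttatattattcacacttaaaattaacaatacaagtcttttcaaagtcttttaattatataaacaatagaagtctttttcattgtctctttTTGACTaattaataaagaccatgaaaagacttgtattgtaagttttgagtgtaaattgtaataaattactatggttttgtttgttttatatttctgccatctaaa
WRKY70: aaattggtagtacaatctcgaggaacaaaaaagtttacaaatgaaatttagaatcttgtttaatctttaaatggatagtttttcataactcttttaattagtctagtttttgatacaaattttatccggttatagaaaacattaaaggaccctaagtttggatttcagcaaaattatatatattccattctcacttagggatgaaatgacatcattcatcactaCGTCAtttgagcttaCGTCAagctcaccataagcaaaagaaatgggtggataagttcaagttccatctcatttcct

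Over the 1000 bases upstream, EDS5 had 4 W-box matches and 1 TGACG match, and WRKY70 had 0 W-box and 2 TGACG matches. Both TGACG matches of WRKY70 lay within the first 300 bases, 76 and 61 bases upstream of its start, and 2 of the W-box matches of EDS5 did. Of 27443 protein-coding genes of the nuclear chromosomes, 67.3% had a W-box match and 54.1% a TGACG match in 1000 bases, and 4.69% had at least 4 W-box matches. In 300 bases 3.99% had at least 2 TGACG matches and 7.91% at least 2 W-box matches. Among the genes not past the threshold or not tested, NPR1, ICS1 and PAD4 had neither motif in 1000 bases. EDS1 had 1 W-box and 1 TGACG match there, each within 300 bases, and SAG101 had 1 and 2. PR2 had 1 W-box and 2 TGACG matches, and PR5 had 3 W-box and 0 TGACG matches. A match is a description of the letters and not a bound site, and no binding was measured.

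Library totals lay between 40876788 and 44982000 counts. The mutated loci, AT4G22320 and AT5G55210 by knowledge of the literature, had 8, 12 and 15 and 7, 14 and 22 counts in bdh replicates 1, 2 and 3, against 169, 143 and 148 and 693, 575 and 755 in WT. Markers of other states also moved: the summed CPM of 7 root genes, nearly all of it from the root beta-glucosidase gene PYK10, was 4584 to 5585 in bdh and 2785 to 3919 in WT, and that of 6 senescence genes 1180 to 1261 in bdh and 1013 to 1132 in WT. In each of these lists 1 gene rose, PYK10 for root and SAG21 for senescence, and 2 senescence genes fell, NAC092 (-0.42) and NYE1 (-0.30). Past the threshold were 14.3% of the 7 tested root genes and 75% of the 4 tested senescence genes, beside 23.5% of all tested genes. The senescence sum came mostly from SEN1 and SAG21, and SEN1 was not past the threshold (log2 fold change 0.11). The defining senescence protease gene SAG12 had at most 2 counts in any library. The summed CPM of 10 seed storage genes was 5.62 to 7.37 in bdh but 1.42, 70.9 and 99.2 in WT replicates 1, 2 and 3. The WT libraries thus stood apart from each other there, with WT replicate 1 below every bdh library. Of the 5 tested genes 3 were called lower in bdh and none higher, beside 11.3% of all tested genes called lower. The groups overlapped for all 5, and the 3 called, CRA1, CRU3 and PAP85, each lost the call without bdh replicate 1. The etiolation marker PORA was abundant in both genotypes, at 950.3 ± 250.5 CPM in bdh and 553.1 ± 51.0 CPM in WT (SD, n = 3 each), and rose in bdh (log2 fold change 0.78, edgeR adjusted p = 0.0126). The other etiolation gene listed, PIL1, was not past the threshold (log2 fold change 0.05). The part of these markers in the results below was not tested.

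Of the output genes, PR1, which encodes a small secreted protein and is the usual marker of the response, had 52, 37 and 20 counts in bdh replicates 1, 2 and 3 and 2, 6 and 12 counts in WT replicates 1, 2 and 3. Every bdh library was above every WT library, and both groups varied widely. As TMM-scaled CPM the level was 0.843 ± 0.362 in bdh and 0.147 ± 0.108 in WT (SD, n = 3 each). The log2 fold change was 2.49 (SE 0.554, edgeR adjusted p = 0.0123); the SE is derived from the test statistic and is approximate. The authors' deposited table gives 2.17 with an adjusted p of 0.000776. A DESeq2 fit of the counts gave the same adjusted p with a log2 fold change of 2.52, so each fold change taken from the authors' deposited table is on another scale than the edgeR one. For all 8 tested genes the value in the authors' deposited table was closer to 0 than in that DESeq2 fit. Without bdh replicate 1, the highest, the call was lost (log2 fold change 2.17, edgeR adjusted p = 0.0632), and without WT replicate 3, the highest of its group, the log2 fold change was 3.19. No other gene matched the exons of PR1 over 100 bases or more at 95% identity or more.

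PR2, which encodes a beta-1,3-glucanase, and PR5, which encodes a thaumatin-like protein, had 0 counts in all 3 bdh and all 3 WT libraries. A count of 0 allows a level of up to 3 counts, which is 0.0684 to 0.0714 CPM in the bdh libraries and 0.0651 to 0.0678 CPM in the WT libraries, for counting error only. The mean PR1 level was above these limits in both genotypes, though WT replicate 1, at 0.0442 CPM, was below them. A difference in PR2 or PR5 between bdh and WT within these limits was therefore not detectable at this depth. These zeros were set against the annotation, because a gene can also be at 0 where its exons lie under those of another gene. Of 345 protein-coding genes whose exonic bases are all annotated to a gene on the opposite strand as well, 98.6% had 0 counts in all libraries, against 15.5% of 19818 genes with no overlap. PR2 and PR5 share no exonic base with another gene. Neither had a match in another gene at 95% identity over 100 bases or more.

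**Figure D2:**
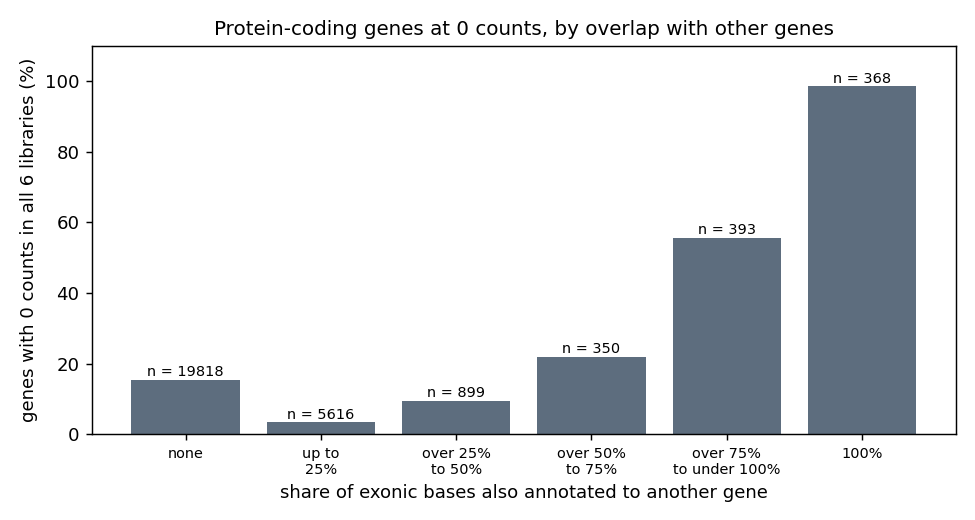
Share of protein-coding genes with 0 counts in all 6 libraries (y axis, percent) by the share of their exonic bases that also belongs to another annotated gene on either strand (x axis; n, genes per bar). The share at 0 was 15.5% with no overlap and 98.6% with complete overlap; PR1, PR2 and PR5 belong to the leftmost bar.

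Among the synthesis genes, EDS5, the transporter that exports isochorismate from the plastid, had 3.78, 4.81 and 4.86 CPM in bdh replicates 1, 2 and 3 and 2.41, 3.62 and 2.75 CPM in WT replicates 1, 2 and 3. The lowest bdh library lay just above the highest WT library. The log2 fold change was 0.61 (SE 0.192, edgeR adjusted p = 0.0441), close to the threshold, and the authors' deposited table gives 0.49 with an adjusted p of 0.0287. Of the 6 fits without 1 library, 5 lost the call, all but the one without WT replicate 2, with log2 fold changes from 0.49 to 0.80 over the 6. An opposite-strand gene covers 9.42% of its exonic bases. ICS1, the isochorismate synthase of the defence route, had 10.4, 11.9 and 6.27 CPM in bdh replicates 1, 2 and 3 and 7.34, 6.15 and 7.24 CPM in WT replicates 1, 2 and 3. Replicates 1 and 2 of bdh were above all WT libraries, and bdh replicate 3 was within the WT range. The log2 fold change was 0.46 (SE 0.209, edgeR adjusted p = 0.133). Without bdh replicate 2, the highest, it was 0.27 (edgeR adjusted p = 0.351), and without bdh replicate 3 it was 0.70 and past the threshold (edgeR adjusted p = 0.0112). None of the remaining fits without 1 library called it.

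The 3 genes of the EDS1 node were not past the threshold. EDS1, the lipase-like hub of the node, had 16.3, 18.1 and 14.0 CPM in bdh replicates 1, 2 and 3 and 20.9, 16.8 and 18.9 CPM in WT replicates 1, 2 and 3, so that the groups overlapped (log2 fold change -0.23, SE 0.126, edgeR adjusted p = 0.214). Its neighbour and closest match, AT3G48080, is 82.6% identical over 2186 bases. PAD4, the partner of EDS1 in basal resistance, had 5.17, 5.52 and 6.16 CPM in bdh replicates 1, 2 and 3 and 4.60, 4.79 and 5.10 CPM in WT replicates 1, 2 and 3. Every bdh library was above every WT library, but the log2 fold change of 0.22 missed the threshold (SE 0.135, edgeR adjusted p = 0.262). SAG101, the partner of EDS1 in cell death, had 11.8, 12.3 and 12.2 CPM in bdh replicates 1, 2 and 3 and 11.7, 11.2 and 11.4 CPM in WT replicates 1, 2 and 3. The groups again did not overlap, by a narrow margin, and the log2 fold change was 0.08 (SE 0.097, edgeR adjusted p = 0.576). Such separation was common: the CPM of the genotypes did not overlap for 41.3% of all tested genes, and for 6 of the 8 described here. At an unadjusted p under 0.05 edgeR also gave 0 of these 3 genes, and DESeq2 called 0.

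NPR1, the salicylic acid receptor and coactivator of PR1, was the most abundant of the 10 per length of exon in both genotypes. It had 26.3, 26.3 and 26.5 CPM in bdh replicates 1, 2 and 3 and 36.5, 31.0 and 29.8 CPM in WT replicates 1, 2 and 3. The bdh libraries lay within a narrow band below the lowest WT library. The log2 fold change was -0.30 (SE 0.100) and missed the threshold (edgeR adjusted p = 0.0535). The authors' deposited table gives -0.27 with an adjusted p of 0.0452, on the other side of it. With each library's trend of level on exonic length taken out, the log2 fold change was -0.18 (edgeR adjusted p = 0.197). Genes on the opposite strand share 9.64% of its exonic bases.

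WRKY70, a transcription factor that promotes salicylic acid responses and restrains jasmonate ones, had 5.56, 6.07 and 6.53 CPM in bdh replicates 1, 2 and 3 and 8.52, 7.82 and 7.52 CPM in WT replicates 1, 2 and 3. All bdh libraries were below all WT libraries. The log2 fold change was -0.39 (SE 0.124, edgeR adjusted p = 0.0449), and the authors' deposited table gives -0.34 with an adjusted p of 0.0402. The call was lost in each of the 6 fits without 1 library (edgeR adjusted p 0.0572 to 0.172, log2 fold change -0.45 to -0.33), with upper-quartile scaling (0.0584) and with no filter on low counts (0.0527). With the length trend taken out it was -0.48 and past the threshold (0.0243).

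**Figure D3:**
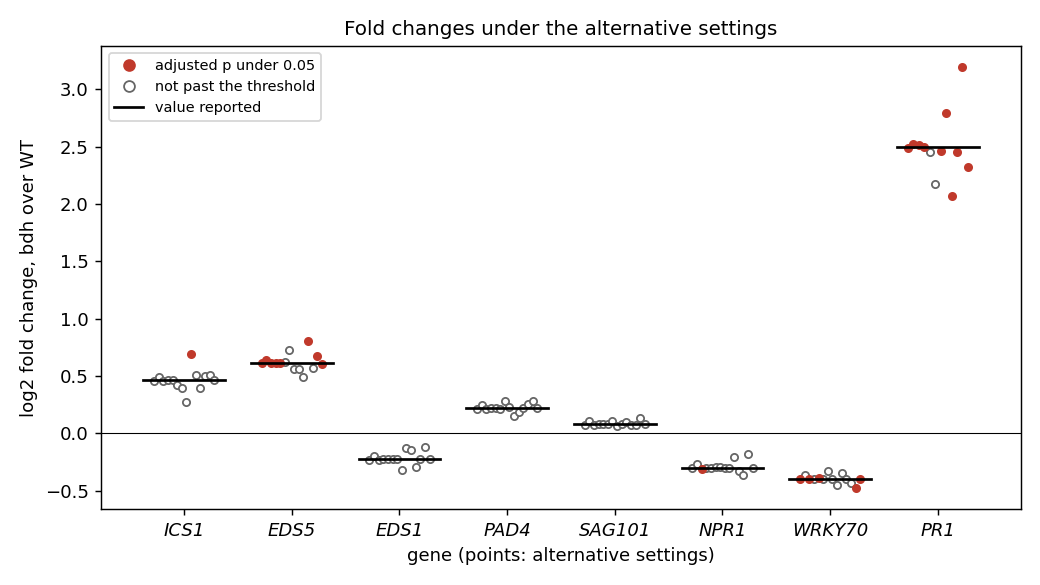
Log2 fold change (bdh over WT, y axis) of the 8 tested genes under up to 14 alternative settings (points, filled where the adjusted p is under 0.05) and in the fit reported (lines). No gene changed sign; PR1 spans 2.07 to 3.19 and WRKY70 -0.48 to -0.33.

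Set in order of level per kilobase of exon, the 8 detected genes spanned about an order of magnitude in bdh. In bdh NPR1 came first with 10.08 ± 0.041 CPM per kilobase, followed by EDS1 with 6.32 ± 0.819, SAG101 with 5.49 ± 0.133, ICS1 with 4.37 ± 1.33, WRKY70 with 4.12 ± 0.329, PAD4 with 2.49 ± 0.221, EDS5 with 1.98 ± 0.268 and PR1 with 0.934 ± 0.402 (SD, n = 3 each). In WT the order was NPR1 with 12.4 ± 1.37 CPM per kilobase, EDS1 with 7.39 ± 0.793, WRKY70 with 5.41 ± 0.346, SAG101 with 5.19 ± 0.120, ICS1 with 3.17 ± 0.305, PAD4 with 2.14 ± 0.111, EDS5 with 1.29 ± 0.274 and PR1 with 0.163 ± 0.120 (SD, n = 3 each). By its mean WRKY70 came after SAG101 and ICS1 in bdh and before both in WT, though not clear of ICS1 in bdh or of SAG101 in WT. The ranges of the mean ± 1 SD overlapped in bdh for EDS1 and SAG101, EDS1 and ICS1, SAG101 and ICS1, and ICS1 and WRKY70, and in WT for WRKY70 and SAG101, so these pairs were not ranked. No level was corrected for the exonic bases that NPR1 and EDS5 share with other genes.

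**Figure D4:**
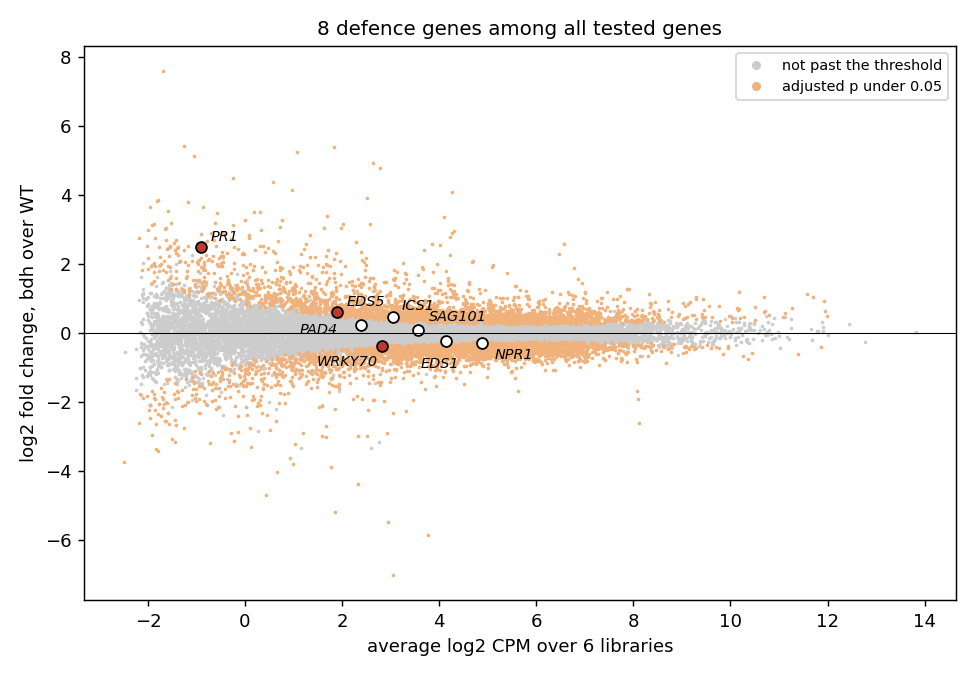
Log2 fold change (bdh over WT) against average log2 CPM for all 20791 tested genes, with the 8 tested defence genes as large circles (filled where the adjusted p is under 0.05). PR1 lies at the low end of expression with a log2 fold change of 2.49, and the other 7 lie between -0.39 and 0.61 within the band of most genes.

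Beyond the 10 genes, 67 other genes of the pathway were listed in 7 groups, with earlier results of these data known. Of these 51 were tested and 16 were past the threshold, 8 higher and 8 lower, which is 31.4% beside 23.5% of all tested genes; the median log2 fold change was -0.05, beside 0.00092 for all tested genes. PBS3 and NUDT6 entered the test only through bdh, and DLO1, WRKY51 and RPP4 only through WT. All 16 are named below.

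In the group for synthesis and its control, 1 of 6 tested genes rose and 2 fell, or 50% past the threshold beside 23.5% of all tested genes. PBS3, the step after ICS1 and EDS5, had 12, 10 and 26 counts in bdh and 2, 4 and 0 in WT (log2 fold change 2.99, SE 0.757, edgeR adjusted p = 0.0204), and at such counts its size is uncertain. The call of PBS3 was lost without bdh replicate 1, bdh replicate 3, WT replicate 1 or WT replicate 3. CBP60g, a transcription factor that activates ICS1, fell to 1.66 ± 0.524 CPM in bdh, against 3.80 ± 0.359 CPM in WT (SD, n = 3 each; log2 fold change -1.20, edgeR adjusted p = 0.00704). CAMTA3, a calmodulin-binding factor that represses CBP60g and EDS1, fell to 42.6 ± 3.04 CPM in bdh, against 63.8 ± 4.48 CPM in WT (log2 fold change -0.58, edgeR adjusted p = 0.0032). Both kept the call in all 14 alternatives at this threshold, and with the length trend taken out CAMTA3 was at -0.31. The second master regulator, SARD1, had 5, 4 and 7 counts in bdh and 4, 7 and 9 in WT and was not tested. Among genes that modify salicylic acid 1 of 5 tested rose, or 20% beside the same 23.5%. It was the glucosyltransferase gene UGT74F2 (0.44, edgeR adjusted p = 0.0495). UGT74F2 lost the call in 8 of the 14 alternatives, among them each fit without 1 library except the one without bdh replicate 3.

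Around perception, 1 of 13 tested NPR, NIMIN and TGA genes (7.69%, beside 23.5% of all tested genes past the threshold) fell and none rose. It was NPR3 (-0.37, edgeR adjusted p = 0.0174), a salicylic acid receptor that acts as a corepressor, and it lost the call without bdh replicate 1 or WT replicate 3 and with the length trend taken out (-0.24, edgeR adjusted p = 0.111). Among partners of the EDS1 node 2 of 7 fell, both helper immune receptor genes, or 28.6% past the threshold beside 23.5% of all tested genes. NRG1.1, which acts with EDS1 and SAG101, was at 11.6 ± 1.19 CPM in bdh and 18.4 ± 0.716 CPM in WT (SD, n = 3 each; log2 fold change -0.66, edgeR adjusted p = 0.00346). ADR1-L1, which acts with EDS1 and PAD4, was at 68.4 ± 2.25 CPM in bdh and 87.1 ± 3.2 CPM in WT (-0.35, edgeR adjusted p = 0.0157), but at -0.07 once the length trend was taken out (edgeR adjusted p = 0.684). It also lost the call without bdh replicate 1 or WT replicate 1. Opposite-strand genes cover 23.4% of its exonic bases.

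Among defence WRKY genes 33.3% of the 9 tested were past the threshold, beside 23.5% of all tested genes. WRKY53 (0.83, edgeR adjusted p = 0.037) and WRKY60 (0.48, edgeR adjusted p = 0.0212) rose, and WRKY33 fell (-0.54, edgeR adjusted p = 0.0496). WRKY33, a regulator of camalexin synthesis, overlapped between the genotypes. Each of these 3 lost the call without bdh replicate 1 and without WT replicate 3. WRKY53 and WRKY33 also lost it without bdh replicate 3 or WT replicate 1, WRKY33 with upper-quartile scaling, and WRKY53 without bdh replicate 2 and with the length trend taken out (edgeR adjusted p = 0.0555). An opposite-strand gene covers 20.5% of the exonic bases of WRKY53.

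In the group of salicylic acid-responsive and systemic resistance genes all 4 tested genes rose, beside 12.1% of all tested genes called higher, but 9 of its 13 genes were too low for a test and NUDT6 entered the test only through its bdh libraries. AZI1, a lipid-transfer-like protein that primes systemic resistance, was at 163 ± 34.0 CPM in bdh and 27.6 ± 6.93 CPM in WT (SD, n = 3 each). Its log2 fold change was 2.57 (SE 0.194, edgeR adjusted p = 0.000128). SARD4, which acts in pipecolate synthesis, was at 4.28 ± 0.176 CPM in bdh and 1.96 ± 0.25 CPM in WT (log2 fold change 1.13, edgeR adjusted p = 0.00224). AZI1 and SARD4 kept the call in all 14 alternatives. GRX480, a glutaredoxin that binds TGA factors, was higher by 0.64 (edgeR adjusted p = 0.0344) and lost the call in 6 of 14 alternatives, among them the fits without bdh replicate 1, bdh replicate 3, WT replicate 1 or WT replicate 3. NUDT6, a Nudix hydrolase, had 14, 14 and 12 counts in bdh and 0, 2 and 4 in WT, or 2.73 higher on the log2 scale (SE 0.678, edgeR adjusted p = 0.0188). At such counts its size is uncertain, and the call was lost without bdh replicate 1 or WT replicate 1. The systemic regulators ALD1 and FMO1 had at most 2 and 12 counts in any library. DIR1 was at 0 throughout, and all 813 of its exonic bases are also annotated to a gene on the opposite strand, so its level was not measured here.

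Among regulators of autoimmunity 2 of 7 tested genes fell and none rose, or 28.6% past the threshold beside 23.5% of all tested genes. LSD1, a zinc-finger protein that restrains cell death, was at -0.41 (edgeR adjusted p = 0.0154), and SIZ1, a SUMO ligase that restrains salicylic acid responses, at -0.28 (edgeR adjusted p = 0.0399). LSD1 lost the call without WT replicate 1 or WT replicate 3. SIZ1 was at -0.03 with the length trend taken out (edgeR adjusted p = 0.85), and lost the call without bdh replicate 1, bdh replicate 3, WT replicate 1 or WT replicate 3. SNC1, an immune receptor gene named after its values were seen, was at 0.01 in the fit reported but at 0.34 and past the threshold with the length trend taken out (edgeR adjusted p = 0.0239). DESeq2 called 4 of the group, where edgeR called 2.

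**Figure D5:**
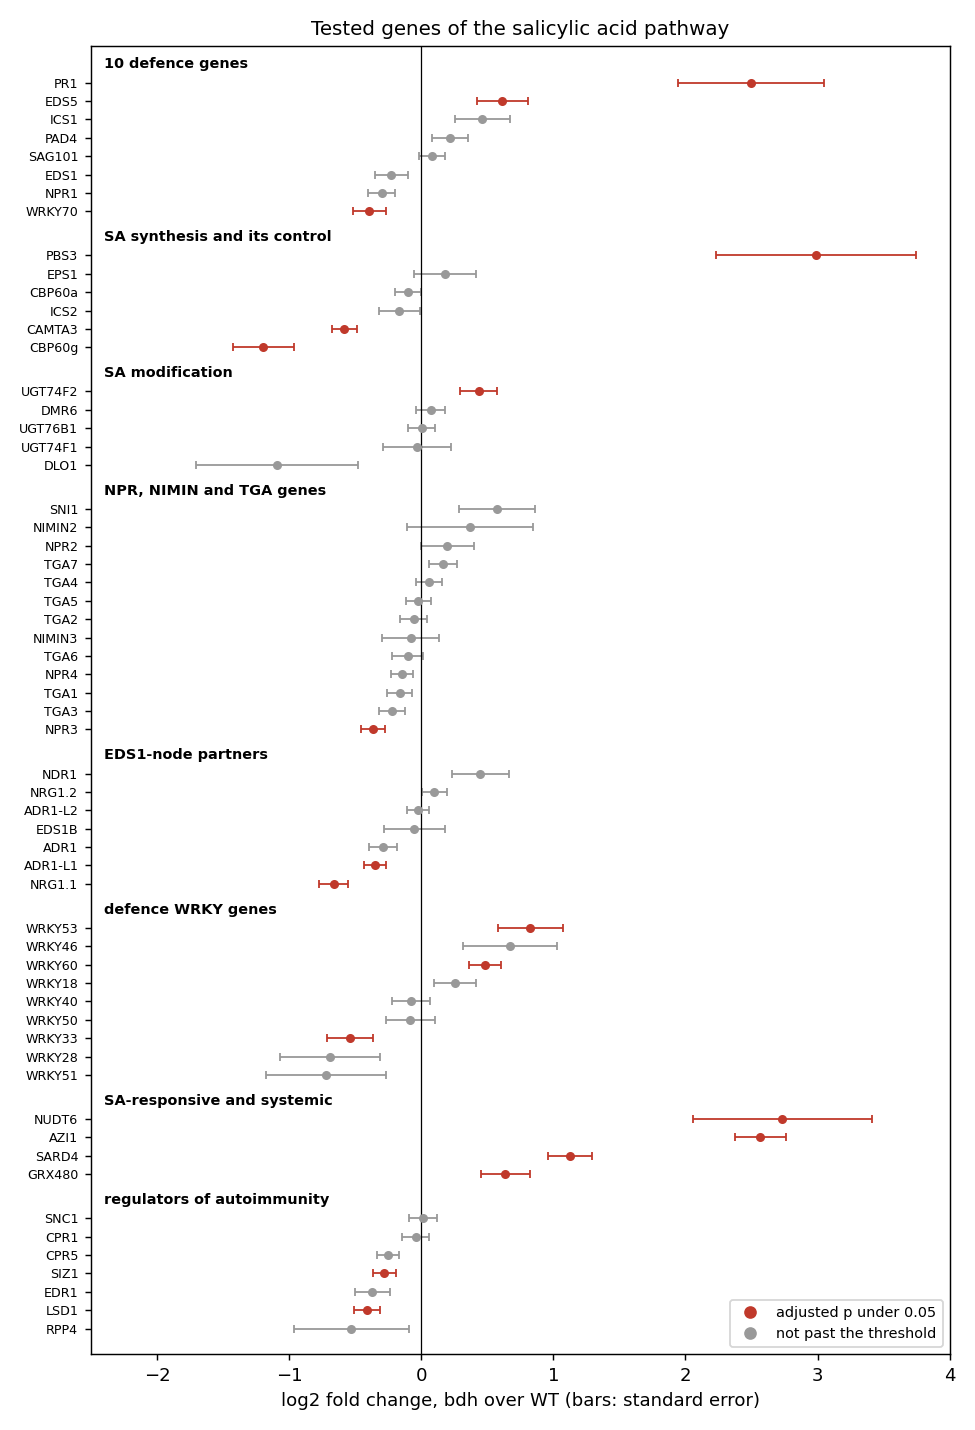
Log2 fold change (bdh over WT, x axis) with its standard error for the 8 tested defence genes and 51 further tested genes of the pathway, by group from top to bottom (SA, salicylic acid); red marks an adjusted p under 0.05. AZI1, NUDT6, PBS3 and PR1 have the highest values, from 2.49 to 2.99, and CBP60g has the lowest of those past the threshold, at -1.20.

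The jasmonate and ethylene branch, which often opposes salicylic acid responses, was represented by 12 genes. Of the 8 tested 1 was past the threshold, or 12.5% beside 23.5% of all tested genes. It was PR4, a hevein-like protein gene, at 46.7 ± 1.02 CPM in bdh and 68.4 ± 10.4 CPM in WT (SD, n = 3 each; log2 fold change -0.55, edgeR adjusted p = 0.00925). It kept the call in all 14 alternatives. The repressor genes JAZ10 (0.51, edgeR adjusted p = 0.0587, or 0.0468 with the length trend taken out) and JAZ1 (0.32, edgeR adjusted p = 0.0506) missed the threshold, named after their values were seen, and DESeq2 called 3 genes of the group. PDF1.2, THI2.1 and MYC2 were at 0 in every library. MYC2 shares 3241 of its 3289 exonic bases with an opposite-strand gene, so its zeros give no level.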

How the data were processed

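Libraries were strand-specific and made for the DNBSEQ platform, per the labels' protocols. The submitters' processing notes name STAR 2.7.10b, featureCounts, Subread 2.0.3, DESeq2 1.38 and the TAIR10 build, with no settings. The authors deposited whole-number raw counts per gene, without pooling, and a comparison with a mean normalized signal, log2 fold changes with standard errors and p-values, per the file headers.

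Genes were tested on the deposited counts in edgeR 4.0.16 under R 4.3.3 (filterByExpr with the group, TMM, glmQLFit, glmQLFTest, no covariate), bdh over WT, adjusted p under 0.05 over all tested genes. The SE was derived as the size of the log2 fold change over the square root of F. A level of 1 CPM equalled 40.9 to 45.0 counts before TMM scaling. Of the counts between 1 and 20, 74.8% were even, so counts are not all independent. The limits given for a count of 0 cover the counting error of independent counts only, so they may be too low. Nothing states that libraries of a genotype came from separate cultures, so p-values measure the spread between these libraries, which may be technical.

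Overlaps, exonic lengths, copies (blastn, at least 95% identity over 100 bases) and upstream sequence came from RefSeq TAIR10.1, whose nuclear chromosomes are those of TAIR10; all 116 listed loci matched. The 10 genes and all lists were chosen with earlier results of these data known. All 10 are named, and of each other list at most the 4 largest changes past the threshold. The 3 genes most like PR1 and like ICS1 were taken by the smallest maximum difference in centred log2 CPM (prior count 2), the average log2 CPM being 1 or more. Alternatives tried were upper-quartile or RLE scaling, no filter on low counts, DESeq2 1.42.0, at least 10 counts in every library, a replicate block, each library left out, an adjusted p under 0.01, a test against a fold change of 1.5, length offsets (per library, a spline of 4 degrees of freedom) and halved counts. Some upstream sequence is not reported here.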

Additional observations from a re-analysis of the deposited data

How the results depend on the processing

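None of the 8 tested defence genes changed sign in the alternatives that refit the data, 12 for PR1 and 14 for each of the others; the other 2 of the 16 alternatives change only the threshold or the test and leave the fold changes as they were. The labels name no pairing, and replicate numbers showed none in a check of deviations from the genotype means. Libraries with the same number correlated at 0.0469, -0.281 and -0.168 for replicates 1, 2 and 3. Of the bdh libraries only replicate 1 correlated best with the WT library of its own number. For bdh replicate 2 the best was WT replicate 3 (0.183), and for bdh replicate 3 it was WT replicate 2 (0.305). No WT library correlated best with the bdh library of its own number. With 3 libraries per genotype and deviations that sum to 0 in each, this check cannot decide whether libraries were paired. With a replicate block 2090 genes were past the threshold in place of 4882, with 0 of the 10 defence genes (4 at an unadjusted p under 0.05), 5 pathway genes in place of 16 and 1 jasmonate or ethylene gene. PR1 then had an edgeR adjusted p of 0.0509 with a log2 fold change of 2.46.

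Leaving out 1 library gave 1811 to 5558 genes, 0 to 2 of the 10 defence genes, 6 to 16 pathway genes and 1 to 3 jasmonate or ethylene genes. Without bdh replicate 1 the counts were 1811 genes, 0 defence genes (4 at an unadjusted p under 0.05 in edgeR) and 6 pathway genes. They were 2373, 1 and 7 without WT replicate 1 and 2682, 1 and 7 without WT replicate 3, and without bdh replicate 2 the count of defence genes was 1. At an adjusted p under 0.01 the counts were 1649 genes, 0 defence genes (4 at an unadjusted p under 0.05) and 5 pathway genes. Tested against a fold change of 1.5 they were 431 genes, 0 defence genes (1 at an unadjusted p under 0.05), 2 pathway genes and 0 jasmonate or ethylene genes (1 at an unadjusted p under 0.05). That the last 2 settings give fewer calls follows from their stricter thresholds. Each fit without 1 library has fewer samples. Without bdh replicate 2 it gave 4899 genes and without WT replicate 2 it gave 5558, more than the 4882 of the full fit. The other fits without 1 library gave fewer. The cause of these and the remaining differences was not tested. The jasmonate and ethylene count, 1 as reported, was 3 with DESeq2 and 2 with upper-quartile factors, at least 10 counts in every library, length offsets or halved counts. PR1 could not be tested with halved counts or with at least 10 counts in every library, since too few of its counts passed. The low counts of PR1, PBS3 and NUDT6 limit the size of their changes.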

Other observations

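The genes whose level followed that of PR1 most closely over the 6 libraries, by the largest absolute difference in centred log2 CPM, were EXPA2 (0.27), AT2G41800 (0.51) and AT5G01300 (0.74). EXPA2, an expansin gene, had 10.98, 10.7 and 5.14 CPM in bdh replicates 1, 2 and 3 and 0.841, 2.101 and 3.86 CPM in WT replicates 1, 2 and 3. As for PR1, bdh replicate 3 was the lowest of its group and WT replicate 1 the lowest of its own. Those closest to ICS1 were AT5G60760 (0.12), AT1G17030 (0.12) and AT2G37420 (0.14), and none of these 3 was past the threshold between the genotypes in edgeR. AT5G60760 had 28.7, 33.9 and 17.8 CPM in bdh replicates 1, 2 and 3 and 23.2, 18.3 and 23.3 CPM in WT replicates 1, 2 and 3, and bdh replicate 3 was the lowest of its group, as for ICS1. These likenesses are descriptions over 6 libraries and carry no test.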
